A study of Rattus norvegicus with 6 samples.

Results

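The 43 rat genes described here form the NRF2 and glutathione defence of the cell together with the thioredoxins, peroxiredoxins, superoxide dismutases and catalase. They were taken from a list of symbols, and a gene was measured where the RefSeq accession of a probe on the array carried its symbol. No probe matched Pgd, and the other 42 genes were all tested, out of 10975 genes tested on the array. Of the 42 genes, 41 were well above background on all 6 arrays. RNA came from primary Leydig cells of Sprague-Dawley rats, the androgen-producing cells between the seminiferous tubules, cultured at 34 °C and 5% CO2 in F12/DMEM medium containing 10% fetal bovine serum. The exosome group (exosome 1, 2 and 3) received, for 24 h, exosomes (secreted membrane vesicles) of primary rat Sertoli cells at a dose of 5 µg/ml, and the untreated group (untreated 1, 2 and 3) received none. No label says that the samples of a group are different animals or cultures, and the p-values therefore speak to the spread of these 6 samples alone, which may be technical.

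NRF2, the product of Nfe2l2, is a transcription factor that KEAP1 binds and delivers for degradation. Oxidants and electrophiles modify KEAP1, NRF2 accumulates, and with small MAF proteins it binds antioxidant response elements of genes for glutathione synthesis, quinone reduction and conjugation. Glutathione and thioredoxin are the thiols that supply peroxidases and transferases with reducing power, and in Leydig cells the mitochondrial steps of steroid synthesis are a known source of reactive oxygen.

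A level is given as the log2 processed intensity of a probe minus the 75th percentile of its array, so that 0 is the 75th percentile and a level can be compared between arrays but not between probes. A difference is the mean level of the 3 exosome arrays minus that of the 3 untreated arrays, with its standard error (SE) from limma. A gene passed the test at an adjusted p below 0.05 over all tested probes, and a gene with more than 1 probe is given by its brightest. Between 67.2% and 72.2% of probes were well above background on exosome arrays, against 72.6% to 75.6% on untreated arrays, and no gene spot was saturated. Arrays of one group correlated at r of 0.984 to 0.994 and arrays of different groups at 0.969 to 0.983, over probes. Untreated 1 to 3 shared 1 scan, exosome 1 and 2 another, and exosome 3 had one of its own, so scan and group cannot be told apart. The whole array was shifted: the median difference of all tested genes was -0.19, against 0.01 after quantile normalization and 0.04 after centring each array on its median.

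Most of the 22 antioxidant genes that passed the test were lower in exosome cells. In all, 19 of the 42 genes fell (45.2%, against 29.2% of all tested genes) and 3 rose, namely Gclc, Gstt2 and Taldo1 (7.1%, against 14.6% of all tested genes). The other 20 did not pass. The falls ran between 20.5% and 65.1%, and the rises between 1.46-fold and 1.63-fold. The median difference of the 42 genes was -0.40, and 31 of them had a negative sign, against 6567 of the 10975 tested genes. The groups did not overlap for 29 genes (69.0%, against 62.0% of all tested genes), with the exosome arrays below in 22 (background 37.9%) and above in 7 (background 24.1%). Glutathione transferases of the mu class, the thioredoxin reductases (Txnrd1 by its brighter probe alone), mitochondrial thioredoxin and catalase fell. Cytosolic thioredoxin, the 3 glutathione peroxidases by their brightest probes and all superoxide dismutases did not pass the test. In each of the 4 other scalings given below, however, the dismutase Sod1 passed as higher.

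The balance between falls and rises moved with the scaling. With quantile normalization 12 genes fell and 4 rose (background 16.1% and 20.2%), and with median centring 8 fell and 8 rose (background 17.0% and 25.0%). With normexp background correction 22 fell and 6 rose (background 35.3% and 17.9%). The median difference of the 42 genes was -0.22 with quantile normalization and -0.17 with median centring. All 19 falling genes kept a negative sign in the 4 other scalings tried, and 7 of them passed in every one: Akr1b8, Gss, Gstm1, Gstm3, Gstm5, Txn2 and Txnrd1. For Txnrd1 this holds for its brighter probe alone. The 3 rising genes, Gclc, Gstt2 and Taldo1, also passed in all 4 other scalings. Those 4 include the authors' deposited values, whose results lay close to those of quantile normalization. The calls of Keap1, Cat, Gstm2, Gstt1, Txnrd2 and Prdx2 were lost with both quantile normalization and median centring, that of Gstm4 with quantile normalization (adjusted p = 0.053 by limma), and those of Hmox1, Gstp1, Gsto1, Prdx3 and Prdx6 with median centring. Many calls also rested on all 6 arrays. Of the 19 falls, 4 passed without exosome 1, 16 without exosome 2, 9 without exosome 3, 16 without untreated 1, 3 without untreated 2 and 4 without untreated 3. Gstm1, Gstm3 and Txn2 passed in each of these 6 fits, and no rising gene did. Those passes were narrow, with limma adjusted p as high as 0.0483, 0.0489 and 0.0497. Akr1b8 was lost only without untreated 2, at 0.0526. The share of all tested genes that passed in these fits is not given here. The losses therefore cannot be read as particular to these genes.

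**Figure D1:**
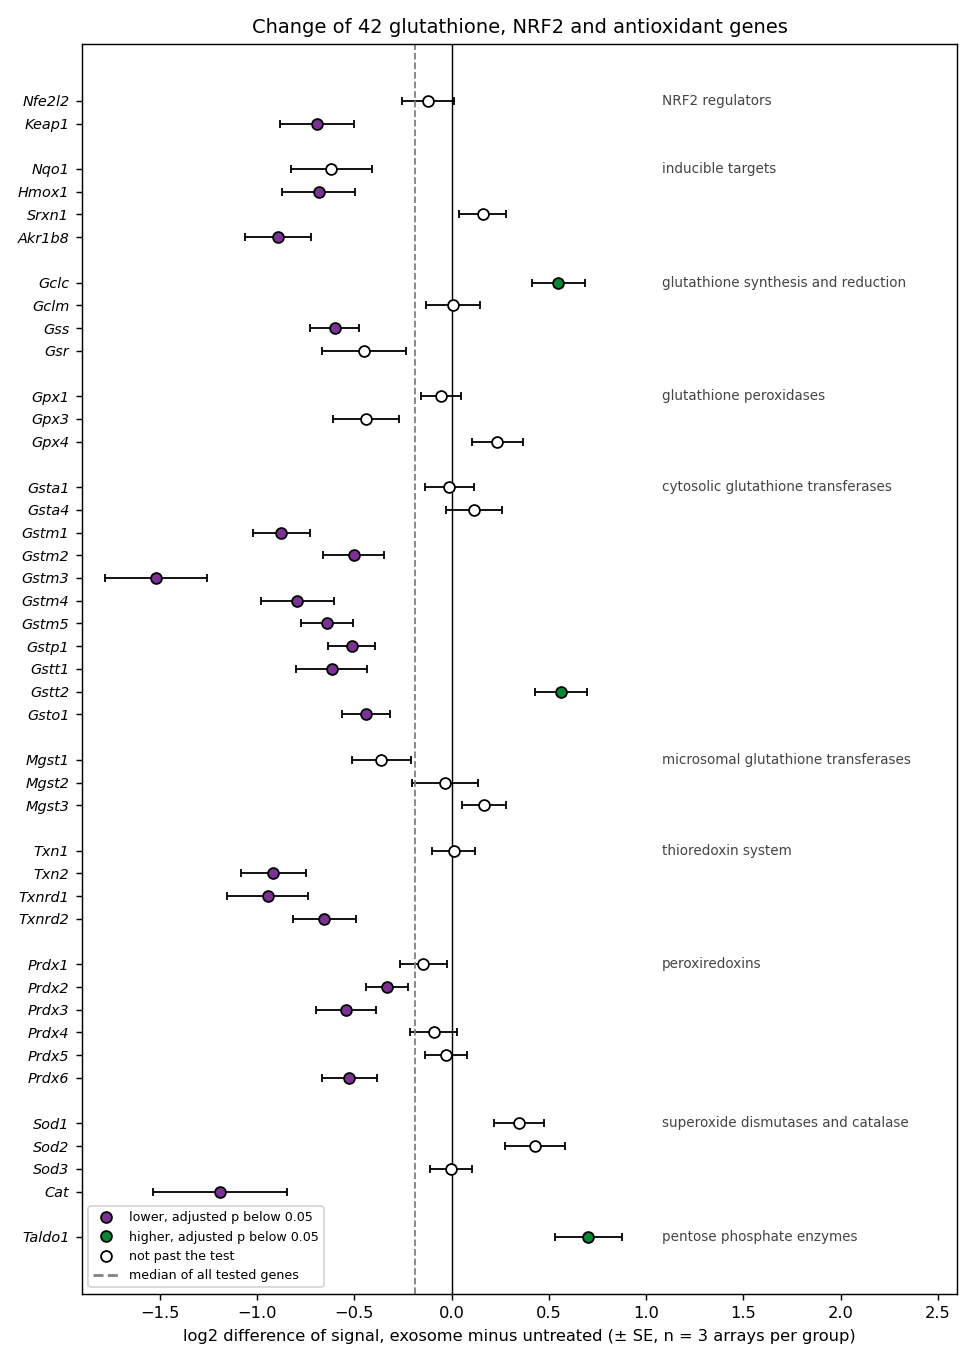
The log2 difference of signal, exosome minus untreated, is plotted on the x axis for each of the 42 genes, ordered down the page by family, with bars for ± SE (n = 3 arrays per group) and the dashed line at the median of all tested genes. Purple points mark the 19 genes that fell and green points the 3 that rose at an adjusted p below 0.05, and open points the 20 that did not pass. Gstm3, Cat, Txnrd1 and Txn2 sit farthest to the left, while Sod1 and Sod2 sit on the side of Gclc, Gstt2 and Taldo1.

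Of the NRF2 regulators, Keap1 fell and Nfe2l2 did not pass the test. Nfe2l2 measured 2.35, 2.17 and 2.22 on exosome arrays, against 2.18, 2.42 and 2.52 on untreated arrays. The groups overlapped, and the difference was -0.12 ± 0.13 (SE, limma adjusted p = 0.490), turning to 0.11 with median centring. Keap1 measured -2.07, -1.64 and -2.16 on exosome arrays, against -1.02, -1.33 and -1.45 on untreated arrays. Every exosome array lay below every untreated array, and the difference was -0.69 ± 0.19 (SE, limma adjusted p = 0.0286). Quantile normalization ended that call (-0.50, adjusted p = 0.078), as did median centring (-0.46, adjusted p = 0.097). The call was also lost without exosome 1 (-0.64), exosome 3 (-0.59), untreated 1 (-0.57), untreated 2 (-0.72) or untreated 3 (-0.79).

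Among 4 genes that NRF2 is known to induce, Akr1b8 and Hmox1 fell, Nqo1 had non-overlapping groups without passing, and Srxn1 did not pass. The share of all tested genes that fell was 29.2%, and 62.0% had non-overlapping groups. Akr1b8 encodes an aldo-keto reductase that reduces reactive aldehydes. It measured 2.21, 2.42 and 2.10 on exosome arrays, against 2.88, 3.15 and 3.38 on untreated arrays. The groups were clearly apart, with a difference of -0.89 ± 0.17 (SE, limma adjusted p = 0.0126), and the signal fell by 46.1%. Hmox1, the inducible enzyme that breaks down heme, measured 2.01, 2.16 and 1.81 on exosome arrays, against 2.38, 2.66 and 2.99 on untreated arrays. Untreated 3 was its highest array, and the difference was -0.68 ± 0.19 (SE, limma adjusted p = 0.0284), or -0.45 with median centring (adjusted p = 0.070). Nqo1, the quinone reductase used as a standard readout of NRF2, measured 1.81, 2.17 and 1.55 on exosome arrays, against 2.18, 2.52 and 2.68 on untreated arrays. Exosome 2 and untreated 1 nearly met, and the difference of -0.62 ± 0.21 did not pass (SE, limma adjusted p = 0.0509), though it did with normexp background correction (-0.62, adjusted p = 0.018), with the stricter filter of probes above background on all 6 arrays (-0.62, adjusted p = 0.031), and without exosome 2 (-0.78) or untreated 1 (-0.76). Srxn1, which repairs over-oxidised peroxiredoxins, ran between 1.09 and 1.26 on exosome arrays and between 0.95 and 1.16 on untreated arrays. Its groups overlapped, with a difference of 0.16 ± 0.12 that passed only with median centring (0.39, adjusted p = 0.049). The median of these 4 differences was -0.65. These 4 genes do not stand for all targets of NRF2. Of the glutathione synthesis genes given below, Gclc rose (0.55), Gclm did not pass (0.01) and Gss fell (-0.60). The call of Akr1b8 was lost without untreated 2 (-0.88), and that of Hmox1 without exosome 1 (-0.69), exosome 3 (-0.59), untreated 2 (-0.69) or untreated 3 (-0.53).

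Of 4 genes of glutathione synthesis and reduction, Gclc rose, Gss fell, and Gclm and Gsr did not pass. Over all tested genes 14.6% rose and 29.2% fell. Gclc encodes the catalytic subunit of glutamate-cysteine ligase, the rate-limiting enzyme of glutathione synthesis. It measured 3.12, 2.88 and 3.14 on exosome arrays, against 2.65, 2.46 and 2.38 on untreated arrays. All exosome arrays were above all untreated ones, by 0.55 ± 0.14 (SE, limma adjusted p = 0.0218), a rise of 46.2%. Its modifier subunit Gclm measured -1.51, -1.59 and -1.45 on exosome arrays, against -1.30, -1.63 and -1.64 on untreated arrays. These groups overlapped and differed by 0.01 ± 0.14 (SE, limma adjusted p = 0.970). Gss, glutathione synthetase, which adds glycine in the last step, measured 0.18, 0.45 and 0.20 on exosome arrays, against 0.81, 0.87 and 0.96 on untreated arrays. It fell by 34.1%, with a difference of -0.60 ± 0.13 (SE, limma adjusted p = 0.0150) and no overlap. Gsr, the reductase that regenerates glutathione, measured -4.12, -3.85 and -4.30 on exosome arrays, against -4.06, -3.48 and -3.39 on untreated arrays. It was dim, its groups overlapped, and the difference of -0.45 ± 0.22 did not pass (SE, limma adjusted p = 0.134), nor did the -0.07 of quantile normalization, though it passed without untreated 1 (-0.65). Within each array Gss minus Gclc ran between -2.94 and -2.43 on exosome arrays, against -1.85 to -1.43 on untreated arrays. That contrast does not depend on the constant taken off each array, and it was chosen after the values were seen. The median of the 4 differences was -0.22, or 0.06 with quantile normalization and 0.01 with median centring. The call of Gclc was lost without exosome 1 (0.51), exosome 3 (0.50), untreated 2 (0.53) or untreated 3 (0.49), and that of Gss without exosome 1 (-0.55), untreated 2 (-0.60) or untreated 3 (-0.56).

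None of the 3 glutathione peroxidases passed by its brightest probe, against 43.8% of all tested genes that passed in either direction. Gpx1, the abundant cytosolic selenium peroxidase, measured 3.03, 3.01 and 3.08 on exosome arrays, against 3.07, 3.08 and 3.14 on untreated arrays. The 6 arrays lay close together and the difference was -0.05 ± 0.10 (SE, limma adjusted p = 0.694), turning to 0.17 with median centring. Gpx3, the secreted form, ran between -4.12 and -3.60 on exosome arrays and between -3.37 and -3.29 on untreated arrays. Its difference of -0.44 ± 0.17 did not pass (SE, limma adjusted p = 0.0753), although with normexp background correction it did (-0.37, adjusted p = 0.013), and with quantile normalization it was -0.07. Gpx4, which reduces lipid hydroperoxides in membranes, had probes that went opposite ways. Its brightest probe measured 5.60, 5.52 and 5.85 on exosome arrays, against 5.49, 5.40 and 5.38 on untreated arrays. The exosome arrays were above, by 0.23 ± 0.13 (SE, limma adjusted p = 0.179), and this passed with median centring (0.46, adjusted p = 0.046) and normexp background correction (0.30, adjusted p = 0.048). Its dimmer probe measured 2.74, 2.99 and 2.74 on exosome arrays, against 3.43, 3.34 and 3.44 on untreated arrays. That probe was lower in exosome cells, at -0.58 ± 0.12 (SE, limma adjusted p = 0.0154), so the direction of Gpx4 RNA is not settled by these arrays. Without exosome 1, untreated 2 or untreated 3 the dimmer probe did not pass, at -0.54, -0.61 and -0.56, nor did it with median centring (-0.35, adjusted p = 0.056).

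The listed mu-class glutathione transferases all fell. These enzymes attach glutathione to epoxides, quinones and other electrophiles. All 5 listed genes, Gstm1 to Gstm5, were lower in exosome cells, with a median difference of -0.79, or -0.69 with quantile normalization and -0.57 with median centring. Across the array 29.2% of tested genes fell. Gstm1 measured -0.35, -0.14 and -0.41 on exosome arrays, against 0.60, 0.37 and 0.76 on untreated arrays. The groups were apart, with a difference of -0.87 ± 0.15 (SE, limma adjusted p = 0.0112), and the signal fell by 45.5%. Gstm3 measured -5.93, -5.98 and -5.05 on exosome arrays, against -4.22, -3.99 and -4.20 on untreated arrays. It was the dimmest of the 42 genes, well above background on 2 of 3 exosome arrays and 3 of 3 untreated arrays, and its fall of -1.52 ± 0.26 (SE, limma adjusted p = 0.0114) was -1.03 with quantile normalization and -0.61 with normexp background correction. Gstm4 measured -3.27, -2.98 and -3.54 on exosome arrays, against -2.71, -2.42 and -2.29 on untreated arrays. Both of its probes were lower, with differences of -0.79 ± 0.19 (SE, limma adjusted p = 0.0198) for the brighter and -1.02 ± 0.20 (SE, limma adjusted p = 0.0135) for the dimmer. Gstm5 measured 1.42, 1.65 and 1.40 on exosome arrays, against 1.98, 2.14 and 2.27 on untreated arrays. No arrays of the groups overlapped, and the difference was -0.64 ± 0.13 (SE, limma adjusted p = 0.0148). Gstm2 measured -1.17, -1.26 and -1.26 on exosome arrays, against -0.56, -1.02 and -0.59 on untreated arrays. Untreated 2 came closest to the exosome arrays, and the difference of -0.50 ± 0.16 (SE, limma adjusted p = 0.0405) was lost with quantile normalization (-0.39, adjusted p = 0.097), with median centring (-0.28, adjusted p = 0.221) and with scan as a random block (-0.51, adjusted p = 0.063).

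Not all of these calls survived the loss of an array. That of Gstm2 was lost without any one of exosome 1 (-0.53), exosome 2 (-0.49), exosome 3 (-0.49), untreated 1 (-0.42), untreated 2 (-0.65) or untreated 3 (-0.44). Gstm4 did not pass without exosome 1 (-0.79), untreated 2 (-0.77) or untreated 3 (-0.70), nor Gstm5 without exosome 1 (-0.61), untreated 2 (-0.64) or untreated 3 (-0.57). Gstm1 ran between -0.98 and -0.78, and Gstm3 between -1.82 and -1.36, over the 6 fits that each left out 1 array, and both passed in all 6. The mu genes are close copies of each other, and how far a probe picks up RNA of its neighbours was not tested, so the 5 falls may not be 5 separate measurements.

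In the RefSeq rat assembly GRCr8 the genes lie together on chromosome 2. Gstm3, Gstm2, Gstm1 and Gstm4 follow each other with 0 coding genes between neighbours, and 4 coding genes separate Gstm5 from Gstm3. Promoters of 300 bases ran from 250 before to 50 after the annotated start. RefSeq gave them for 35 of the 42 tested genes, and they were read for the antioxidant response element core TGACNNNGC on both strands. The promoters of Gstm1, Gstm3 and Gstm5 are printed because these genes of the cluster fell and were among the 6 of smallest p, and those of Gstp1 and Prdx1 because they alone among the 35 hold the stricter core TGACTCAGC, which is a case of the first. All are 5′ to 3′ in the direction of the gene, with core matches in capitals. They lie at chr2:198343334-198343633 on the minus strand (Gstm1), chr2:198300618-198300917 on the minus strand (Gstm3), chr2:198219519-198219818 on the plus strand (Gstm5), chr1:210769656-210769955 on the minus strand (Gstp1) and chr5:135383656-135383955 on the plus strand (Prdx1).
Gstm1: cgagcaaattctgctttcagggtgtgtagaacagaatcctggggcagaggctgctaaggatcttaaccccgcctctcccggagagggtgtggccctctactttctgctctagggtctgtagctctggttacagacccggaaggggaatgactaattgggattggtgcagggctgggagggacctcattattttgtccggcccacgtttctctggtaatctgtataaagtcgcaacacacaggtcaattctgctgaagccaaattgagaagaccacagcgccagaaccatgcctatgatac
Gstm3: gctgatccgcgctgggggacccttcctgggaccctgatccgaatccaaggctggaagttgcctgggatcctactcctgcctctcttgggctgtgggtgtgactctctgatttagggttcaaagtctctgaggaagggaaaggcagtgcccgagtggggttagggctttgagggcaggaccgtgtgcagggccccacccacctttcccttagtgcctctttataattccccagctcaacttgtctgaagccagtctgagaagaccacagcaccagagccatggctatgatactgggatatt
Gstm5: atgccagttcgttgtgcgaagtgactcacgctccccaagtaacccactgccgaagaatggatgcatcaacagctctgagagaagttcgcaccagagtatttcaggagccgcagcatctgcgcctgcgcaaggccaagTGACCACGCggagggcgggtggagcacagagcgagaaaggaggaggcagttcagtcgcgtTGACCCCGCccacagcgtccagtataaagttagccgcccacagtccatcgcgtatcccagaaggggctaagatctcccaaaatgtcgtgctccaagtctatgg
Gstp1: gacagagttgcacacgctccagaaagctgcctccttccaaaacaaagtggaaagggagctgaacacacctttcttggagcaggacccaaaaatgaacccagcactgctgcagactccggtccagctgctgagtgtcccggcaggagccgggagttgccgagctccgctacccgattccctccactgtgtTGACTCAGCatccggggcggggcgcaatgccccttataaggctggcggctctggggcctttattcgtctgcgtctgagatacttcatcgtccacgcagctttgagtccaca
Prdx1: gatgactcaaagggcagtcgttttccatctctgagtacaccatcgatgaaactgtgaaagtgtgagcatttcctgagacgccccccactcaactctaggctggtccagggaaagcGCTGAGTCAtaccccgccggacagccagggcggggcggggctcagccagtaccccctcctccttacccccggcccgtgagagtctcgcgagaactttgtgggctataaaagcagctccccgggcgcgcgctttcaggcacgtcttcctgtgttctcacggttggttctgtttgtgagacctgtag

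The core TGACNNNGC stood in 9 of the 35 promoters, against 12.06% of all 33469 promoters of the same length. By call, it was in 2 of 16 promoters of falling genes, 0 of 2 of rising genes and 7 of 17 of genes that did not pass. Gstm5 held it 113 and 53 bases before the start, and neither Gstm1 nor Gstm3 held it. The core TGACTCAGC, present in 0.4153% of all promoters, lay 61 bases before the start of Gstp1, which fell, and 135 bases before the start of Prdx1, on the opposite strand, which did not pass. TGACTCAGC is also of the AP-1 type, a site of AP-1 transcription factors, so its matches cannot be credited to NRF2 in particular. Matches of letters are a description of these windows only.

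**Figure D2:**
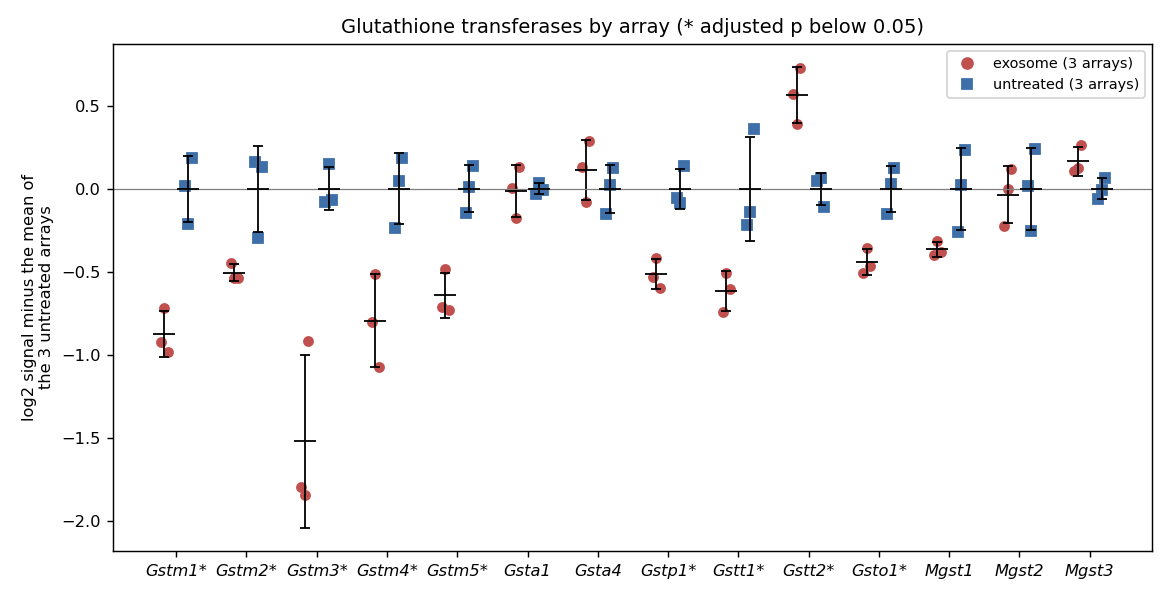
Each point is 1 array, exosome (circles, left of each pair) or untreated (squares), and the y axis is its log2 signal minus the mean of the 3 untreated arrays, with the mean and SD of each group in black. An asterisk marks an adjusted p below 0.05. All exosome arrays lie below the untreated ones for the 5 Gstm genes, Gstp1, Gstt1 and Gsto1, and above them for Gstt2, while the alpha-class genes Gsta1 and Gsta4 overlap.

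Outside the mu class the transferases were mixed. Of 6 other cytosolic genes 3 fell (Gstp1, Gstt1, Gsto1), 1 rose (Gstt2) and 2 did not pass (Gsta1, Gsta4), with a median of -0.23, or 0.003 with median centring. Among all tested genes the shares were 29.2% falling and 14.6% rising. Gstp1, the pi-class enzyme, measured 4.06, 4.17 and 3.99 on exosome arrays, against 4.54, 4.50 and 4.73 on untreated arrays. It was lower, with a difference of -0.51 ± 0.12 (SE, limma adjusted p = 0.0198), or -0.29 with median centring (adjusted p = 0.089). The theta-class genes Gstt1 and Gstt2, which lie 2 coding genes apart, went opposite ways. Gstt1 measured -2.85, -2.61 and -2.71 on exosome arrays, against -2.32, -2.25 and -1.75 on untreated arrays. Its difference of -0.62 ± 0.18 (SE, limma adjusted p = 0.0352) was lost with quantile normalization (-0.35, adjusted p = 0.142), median centring (-0.39, adjusted p = 0.108) and scan as a random block (-0.62, adjusted p = 0.056). Gstt2 measured 2.25, 2.06 and 2.40 on exosome arrays, against 1.72, 1.74 and 1.56 on untreated arrays. It rose by 47.8%, or 0.56 ± 0.13 (SE, limma adjusted p = 0.0198), with all exosome arrays above. Within an array, Gstt2 minus Gstt1 ran between 4.67 and 5.11 on exosome arrays, against 3.31 to 4.04 on untreated arrays, a contrast likewise free of that constant and chosen after the values were seen. Gsto1, the omega-class enzyme, measured 2.52, 2.67 and 2.56 on exosome arrays, against 2.88, 3.05 and 3.15 on untreated arrays. Its groups did not overlap and had a difference of -0.44 ± 0.12 (SE, limma adjusted p = 0.0311), or -0.21 with median centring (adjusted p = 0.174).

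The alpha-class and membrane-bound transferases did not pass, where 43.8% of all tested genes passed in either direction. Gsta1 had levels between 5.88 and 6.19 on exosome arrays and between 6.03 and 6.09 on untreated arrays, with a difference of -0.01 ± 0.12, or 0.22 with median centring. Gsta4, which conjugates the lipid peroxidation product 4-hydroxynonenal, differed by 0.11 ± 0.15. Mgst1, the microsomal enzyme, measured 1.78, 1.87 and 1.80 on exosome arrays, against 1.92, 2.21 and 2.41 on untreated arrays. The exosome arrays were all below, but the difference of -0.36 ± 0.15 did not pass (SE, limma adjusted p = 0.0945) except with normexp background correction (-0.36, adjusted p = 0.048) and without untreated 1 (-0.49). Mgst2 had a difference of -0.03 ± 0.17, and Mgst3 one of 0.17 ± 0.11, which passed with median centring (0.40, adjusted p = 0.037). The median of the 3 Mgst differences was -0.03, or 0.20 with median centring. Among the calls outside the mu class, Gstp1 was lost without exosome 1 (-0.51), untreated 2 (-0.56) or untreated 3 (-0.45). Gstt1 was lost without exosome 1 (-0.55), exosome 2 (-0.67), exosome 3 (-0.62), untreated 2 (-0.69) or untreated 3 (-0.44), and Gstt2 without exosome 1 (0.56), untreated 2 (0.60) or untreated 3 (0.51). Gsto1 was lost without exosome 1 (-0.41), exosome 3 (-0.43), untreated 2 (-0.43) or untreated 3 (-0.38).

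In the thioredoxin system the mitochondrial pair fell, as did the cytosolic reductase by its brighter probe, and cytosolic thioredoxin did not pass. These 3 falls of 4 genes stand beside 29.2% of all tested genes. Txn1, the cytosolic thioredoxin, measured 5.92, 5.80 and 5.95 on exosome arrays, against 5.85, 5.86 and 5.93 on untreated arrays. The groups overlapped and differed by 0.01 ± 0.11 (SE, limma adjusted p = 0.949). Txn2, its mitochondrial counterpart, measured -1.07, -0.68 and -1.09 on exosome arrays, against -0.02, -0.21 and 0.14 on untreated arrays. It fell by 47.0%, with a difference of -0.92 ± 0.17 (SE, limma adjusted p = 0.0118), and passed in all 6 fits without 1 array, between -1.05 and -0.83. Within an array, Txn2 minus Txn1 ran between -7.04 and -6.48 on exosome arrays, against -6.08 to -5.78 on untreated arrays, a contrast chosen after the values were seen. Txnrd1, the cytosolic selenoenzyme that reduces thioredoxin, measured -2.46, -2.08 and -2.89 on exosome arrays, against -1.52, -1.60 and -1.48 on untreated arrays. The exosome arrays were lower and more spread, with a difference of -0.95 ± 0.21 (SE, limma adjusted p = 0.0167). Its dimmer probe overlapped between groups, at -0.28 ± 0.21 (SE, limma adjusted p = 0.307) or 0.13 with quantile normalization, and the mean over both probes did not pass (-0.61, adjusted p = 0.0501). Txnrd2, the mitochondrial reductase, measured -2.40, -2.04 and -2.40 on exosome arrays, against -1.80, -1.63 and -1.44 on untreated arrays. It was lower, with a difference of -0.65 ± 0.16 (SE, limma adjusted p = 0.0216), a call lost with quantile normalization (-0.43, adjusted p = 0.053) and median centring (-0.43, adjusted p = 0.055). The median of the 4 differences was -0.79. Txnrd1 did not pass without exosome 1 (-0.95), untreated 2 (-0.98) or untreated 3 (-0.92), nor Txnrd2 without exosome 1 (-0.59), exosome 3 (-0.59), untreated 2 (-0.66) or untreated 3 (-0.56).

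Peroxiredoxins reduce hydrogen peroxide with electrons from thioredoxin or glutathione, and 3 of the 6 fell while 3 did not pass. For all tested genes the share of falls was 29.2%. Prdx3, the mitochondrial form, measured 1.89, 2.14 and 1.82 on exosome arrays, against 2.28, 2.53 and 2.67 on untreated arrays. The groups were apart, with a difference of -0.54 ± 0.16 (SE, limma adjusted p = 0.0323), or -0.31 with median centring (adjusted p = 0.110). Prdx6, which uses glutathione and also has phospholipase activity, measured 2.88, 3.08 and 3.00 on exosome arrays, against 3.37, 3.43 and 3.74 on untreated arrays. It had a difference of -0.53 ± 0.14 (SE, limma adjusted p = 0.0273), or -0.30 with median centring (adjusted p = 0.112). Prdx2, a cytosolic form, measured 5.17, 5.05 and 5.16 on exosome arrays, against 5.41, 5.45 and 5.51 on untreated arrays. Its fall of 20.5% was the smallest that passed, at -0.33 ± 0.11 (SE, limma adjusted p = 0.0475), and it was lost with quantile normalization (-0.27, adjusted p = 0.083), median centring (-0.10, adjusted p = 0.497) and scan as a random block (-0.33, adjusted p = 0.072). Prdx1, the other cytosolic form, measured 3.71, 3.70 and 3.79 on exosome arrays, against 3.73, 3.93 and 3.97 on untreated arrays. Its groups overlapped, with a difference of -0.14 ± 0.12 (SE, limma adjusted p = 0.350) or 0.08 with median centring. Prdx4, of the endoplasmic reticulum, had a difference of -0.09 ± 0.12, and Prdx5 one of -0.03 ± 0.11. The median of the 6 differences was -0.24, or -0.01 with median centring. Prdx2 did not pass without any one of exosome 1 (-0.35), exosome 2 (-0.29), exosome 3 (-0.35), untreated 1 (-0.35), untreated 2 (-0.34) or untreated 3 (-0.30). Prdx3 was lost without exosome 1 (-0.51), exosome 3 (-0.48), untreated 2 (-0.53) or untreated 3 (-0.45), and Prdx6 without exosome 1 (-0.48), exosome 3 (-0.53), untreated 2 (-0.57) or untreated 3 (-0.41).

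No superoxide dismutase passed, whereas catalase, which removes the hydrogen peroxide that dismutases make, fell. Of all tested genes, 43.8% passed in either direction and 29.2% fell. Sod1, the cytosolic copper-zinc enzyme, measured 5.57, 5.41 and 5.71 on exosome arrays, against 5.28, 5.11 and 5.25 on untreated arrays. Each exosome array was above each untreated array, by 0.35 ± 0.13 (SE, limma adjusted p = 0.0668). The gene passed with quantile normalization (0.41, adjusted p = 0.025), median centring (0.58, adjusted p = 0.024) and normexp background correction (0.39, adjusted p = 0.026). It also passed with the authors' deposited values (0.41, adjusted p = 0.0245) and without exosome 2 (0.43). Sod2, the mitochondrial manganese enzyme, measured 2.15, 2.29 and 2.64 on exosome arrays, against 1.86, 1.93 and 1.996 on untreated arrays. Here too the exosome arrays were all above, by 0.43 ± 0.15 (SE, limma adjusted p = 0.0634), which passed with median centring (0.66, adjusted p = 0.023) and normexp background correction (0.40, adjusted p = 0.031), and with the filter of all 6 arrays above background (0.43, adjusted p = 0.046). Sod3, the extracellular enzyme, measured 2.97, 2.98 and 3.04 on exosome arrays, against 3.06, 2.92 and 3.02 on untreated arrays. The groups overlapped within a narrow range (limma adjusted p = 0.986), and with median centring the difference was 0.23. Cat measured -2.34, -2.001 and -2.90 on exosome arrays, against -1.85, -1.10 and -0.71 on untreated arrays. Its untreated arrays were widely spread and untreated 1 lay near exosome 2, and the signal fell by 56.2%. This difference of -1.19 ± 0.34 (SE, limma adjusted p = 0.0335) was lost as a call with quantile normalization (-1.01, adjusted p = 0.062) and median centring (-0.96, adjusted p = 0.054). It was also lost without exosome 1 (-1.23), exosome 3 (-0.95), untreated 2 (-1.13) or untreated 3 (-0.94). For the mitochondrial enzymes Prdx3, which fell, and Sod2, which did not pass, Prdx3 minus Sod2 within an array ran between -0.82 and -0.15 on exosome arrays, against 0.42 to 0.68 on untreated arrays, a contrast chosen after the values were seen.

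**Figure D3:**
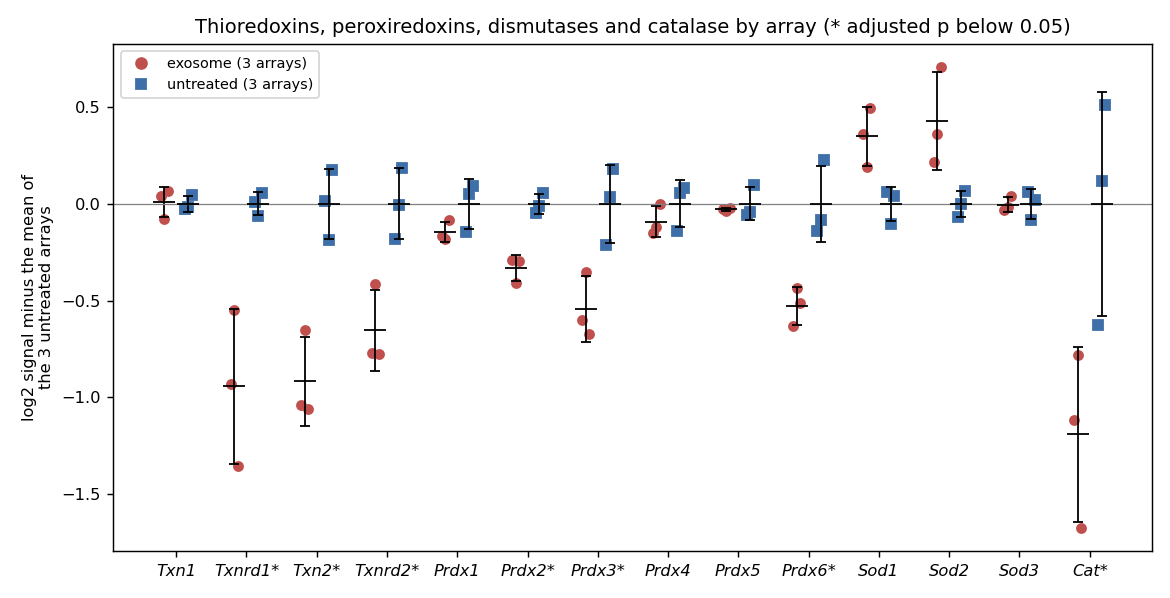
Points are single arrays, exosome (circles, left of each pair) or untreated (squares), with the log2 signal minus the mean of the 3 untreated arrays on the y axis, and the mean and SD of each group in black. An asterisk marks an adjusted p below 0.05. Txn1, Prdx5 and Sod3 lie near 0 in both groups, Txnrd1, Txn2, Txnrd2 and Cat lie lower on exosome arrays, and Sod1 and Sod2 lie higher without passing the test.

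Taldo1 encodes transaldolase of the non-oxidative pentose phosphate pathway, whose oxidative branch makes the NADPH that glutathione and thioredoxin reductases use. It measured 4.46, 4.13 and 4.67 on exosome arrays, against 3.90, 3.66 and 3.60 on untreated arrays. With all exosome arrays above, it rose by 62.8%, or 0.70 ± 0.17 (SE, limma adjusted p = 0.0218). The call was lost without exosome 1 (0.69), exosome 3 (0.58), untreated 2 (0.68) or untreated 3 (0.64).

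The size of a difference moved with how bright a gene was, among all genes as well as the antioxidant ones. With all tested genes split into 4 equal bins of mean level, the median difference was -0.59 in the dimmest, then -0.36, -0.06 and 0.15 in the brightest. Gstm3 was the one antioxidant gene in the dimmest bin. In the next bin lay 7, with a median of -0.65 and 5 falls, where 39.1% of all genes fell. The bin after it held 6, also with a median of -0.65 and 5 falls, where 26.7% of all genes fell. The brightest bin held 28 of the 42 genes, with a median of -0.04, 8 falls and all 3 rises. In that bin 13.2% of all genes fell and 24.3% rose. Akr1b8, Hmox1, Gstm5, Gstp1, Gsto1, Prdx2, Prdx3 and Prdx6 were its 8 falling genes. With quantile normalization the 4 medians of all genes were -0.10, -0.06, 0.02 and 0.13. The within-array contrasts of Gss with Gclc, Gstt2 with Gstt1 and Txn2 with Txn1 set genes of different bins against each other. In the main scaling Gss and Txn2 lay in the bin with a median of -0.06, and Gstt1 in that with -0.36. Gclc, Gstt2 and Txn1 lay in the brightest bin, as did Prdx3 and Sod2. How much of these contrasts the shift with brightness makes up was not tested.

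**Figure D4:**
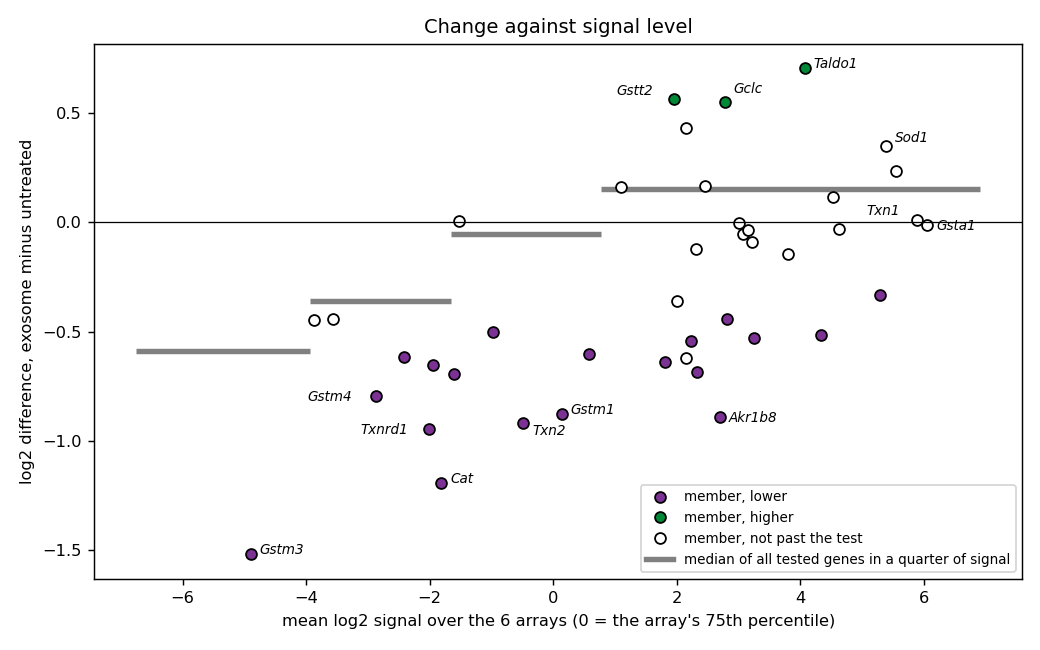
The log2 difference, exosome minus untreated, is plotted on the y axis against the mean log2 level over the 6 arrays on the x axis, with 1 point per antioxidant gene. Purple points fell, green points rose and open points did not pass, and each grey line is the median of all tested genes in 1 of 4 equal bins of level. The grey lines climb between -0.59 and 0.15, and the rising genes Gclc, Gstt2 and Taldo1 all lie in the brightest bin, where 8 genes fell.

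A wider list of 85 genes of glutathione, selenoprotein and NRF2 biology outside the 43 was read in the same way. Of these, 71 were tested, 21 fell and 2 rose (background 29.2% and 14.6%), with a median of -0.22. The share that fell was thus close to that of all tested genes. With quantile normalization 13 fell and 8 rose (background 16.1% and 20.2%). The 2 rising genes were Glrx3, a glutaredoxin (0.68 ± 0.15), and Selenok, a selenoprotein of the endoplasmic reticulum (0.41 ± 0.13). The 6 falling genes of smallest p included another mu-class transferase, Gstm7. It measured -1.13, -0.69 and -1.33 on exosome arrays, against 0.04, 0.31 and 0.39 on untreated arrays. The difference of -1.30 ± 0.20 (SE, limma adjusted p = 0.0102) left no overlap. Ephx1, the microsomal epoxide hydrolase, fell by 1.15 ± 0.16 on the log2 scale, and Akr7a3, an aldehyde reductase, by 0.87 ± 0.14. Slc3a2, the heavy chain of the cystine-glutamate exchanger, fell by 1.43 ± 0.24, and Selenow, a small selenoprotein, by 0.996 ± 0.159. Sesn2, a stress-induced sestrin, was not well above background on any exosome array. In the main scaling its fall is given as a bound of at least 1.70-fold (limma adjusted p = 0.00983). That bound does not carry over to other scalings. The log2 difference was only -0.57 with quantile normalization and -0.41 with normexp background correction, so the size of the fall is not settled. The mu genes Gstm6 (-0.61 ± 0.12) and Gstm6l (-0.72 ± 0.16) on the wider list also fell, and they were picked out after their values were seen. The call of Glrx3 was lost without exosome 1 (0.68), untreated 2 (0.69) or untreated 3 (0.63), and that of Selenok without exosome 1 (0.41), exosome 3 (0.35), untreated 1 (0.36), untreated 2 (0.44) or untreated 3 (0.44).

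The Leydig markers Star, Cyp11a1, Hsd3b1 and Insl3 were well above background on all arrays, and Lhcgr and Nr5a1 on none. The summed linear level of 8 Leydig markers, in units of the 75th percentile, was 74.4 to 88.1 on exosome arrays and 75.6 to 84.8 on untreated arrays. Of 5 tested Leydig markers 1 was lower, Cyp11a1 (-0.86, limma adjusted p = 0.0098), and 0 were higher. The sums for markers of other testis cells differed between the groups. Beside the counts below, 29.2% of all tested genes were lower and 14.6% higher, and the lists are short. Sums were taken in the main scaling only, in which the median difference of all tested genes was -0.19. The sum of Sertoli markers was 12 to 14.0 on exosome arrays, against 19.6 to 27.5 on untreated arrays, with 3 of 7 tested markers lower, 1 higher, and Amh and Gata1 above background on no array. Macrophage markers summed to 8.05 to 18.8 on exosome arrays, against 19.7 to 20.8 on untreated arrays, with 4 of 10 lower and 0 higher. A sum is weighted toward its brightest probes. Among these markers Cd68 was widely spread and did not pass (-2.34 ± 1.74, SE, limma adjusted p = 0.308). Peritubular myoid markers summed to 27.4 to 34.1 on exosome arrays, against 43.3 to 46.7 on untreated arrays, with 3 of 6 lower. Fibroblast markers summed to 58.1 to 61.9 on exosome arrays, against 63.1 to 64.0 on untreated arrays, with 2 of 5 markers higher and 1 lower. Germ cell markers, with Prm1, Tnp2 and Ddx4 above background on no array, summed to 2.07 to 2.48 on exosome arrays, against 1.62 to 1.73 on untreated arrays, with 1 of 3 tested markers higher and 1 lower. Endothelial markers summed to 1.24 to 1.53 on exosome arrays, against 0.913 to 1.07 on untreated arrays, with 2 of 5 tested markers higher, 3 lower, and Tek above background on none. Red cell markers summed to 0.0886 to 0.110 on exosome arrays, against 0.132 to 0.137 on untreated arrays, with Alas2, the 1 tested, lower and Slc4a1 above background on none. The part of these cell types in the differences of the antioxidant genes was not tested, and in bulk samples fewer cells of a type and less RNA per cell cannot be told apart.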

How the data were processed

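Total RNA of 3 exosome and 3 untreated samples was amplified, labelled with Cy3 and hybridised to 1-colour Agilent arrays, per the labels' protocols. Each array file deposited by the authors holds processed fluorescence intensities read with Agilent Feature Extraction 11.0.1.1, per the file headers, already corrected for background inside each array but with no normalization across arrays. The authors also deposited a table of log2 values, whose 6 columns share a median of 5.68. They correlate with the log2 intensity of their own arrays at r of 0.996 or above. How the table was normalized is not given in the sources used here, and it served as an alternative. With it 16.2% of all tested genes fell and 20.2% rose, against 16.1% and 20.2% with quantile normalization, so the table is not a check separate from that scaling. Of 44254 spots on an array 1377 were controls, and 30367 probes remained. Outlier spots (388 to 572 per array) were left out and the spots of a probe averaged. Levels are log2 intensities minus the 75th percentile of the array. The 20426 probes that 3 or more of the 6 arrays measured well above background were tested with limma 3.58.1 in R 4.3.3 (lmFit and eBayes, 3 arrays in each group, Benjamini-Hochberg over all tested probes). The number of arrays limits the precision.

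Accessions were matched to symbols through RefSeq's rat table of assembly GRCr8, which named 18005 probes of 15168 genes and left 12362 unnamed. Of the 42 genes 3 (Gpx4, Gstm4 and Txnrd1) had more than 1 tested probe, and the brightest was used. Members and lists were chosen with earlier results of these data known. Values per array are given for each gene that passed and for a fixed set of central genes whatever their values, and of the wider list the 6 of smallest p in each direction are named. Alternatives were other scalings (quantile, median centring, normexp with an offset of 50, the authors' deposited log2 values), other filters, the mean over probes, leaving out each array, the replicate number as a block and scan as a random block (correlation 0.1095). The array files used here hold median rather than mean foreground signals, so normexp was run on the medians, which departs from the plan. The procedure was tested on simulated data in which 200 probes were changed and the others had no group difference. Those data held no shift of the whole array, so that test cannot speak to the choice of scaling.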

Additional observations from a re-analysis of the deposited data

How the results depend on the processing

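Of the 42 genes 19 fell and 3 rose as reported. Falls and rises numbered 22 and 6 with normexp background correction, 12 and 4 with quantile normalization and with the authors' deposited values, 8 and 8 with median centring, 10 and 3 with no filter on dim probes, 19 and 4 with probes above background on all 6 arrays, 16 and 3 with scan as a random block, and 2 and 0 where a log2 difference of at least 1 was also asked. Leaving out 1 array gave 3 to 19 falls and 0 to 4 rises. Of all tested genes, 35.3% fell and 17.9% rose with normexp, and 16.1% and 20.2% with quantile normalization. The shares were 16.2% and 20.2% with the authors' values, and 17.0% and 25.0% with median centring. For the other alternatives the share over all tested genes is not given here. The wider list (21 falls, 2 rises) gave 26 and 13 with normexp, 13 and 8 with quantile normalization and with the authors' values, 13 and 14 with median centring, 16 and 1 with no filter, 18 and 1 with scan as a block, 7 and 0 at a log2 difference of at least 1, and 6 to 23 falls and 0 to 4 rises without 1 array. Same-numbered samples did not deviate together (correlations -0.086, -0.028 and -0.023). With 3 arrays per group this cannot tell whether the numbers pair the samples, and no label says so. With the replicate number as a block, 9 genes fell and 1 rose, and 17 and 1 of the wider list. Fits without 1 array, and the replicate block, have fewer samples or degrees of freedom behind each test; for the scalings the cause was not tested.

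With median centring the median differences of families were: NRF2 regulators -0.18, glutathione synthesis and reduction 0.0085, peroxidases 0.17, cytosolic transferases -0.29, microsomal transferases 0.20, thioredoxin system -0.56, peroxiredoxins -0.0091, dismutases and catalase 0.40. Synthesis and reduction was 0.0567 with quantile normalization and 0.0571 with the authors' values, the thioredoxin system -0.58 with either, and the peroxidases -0.17 with the mean over probes. Without 1 array the cytosolic transferases ran between -0.64 and -0.44 and the microsomal between -0.160 and 0.0848.

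Signs that turned were all of genes that did not pass in either fit. With median centring these were Nfe2l2 (0.11), Gpx1 (0.17), Gsta1 (0.22), Mgst2 (0.20), Prdx1 (0.0841), Prdx4 (0.14), Prdx5 (0.20) and Sod3 (0.23). Normexp turned Gclm (-0.0687), Gsta1 (0.013), Prdx5 (0.0209) and Sod3 (0.0277). Quantile normalization turned Gsta1 (0.0338), Prdx5 (0.0247) and the dimmer Txnrd1 probe (0.13), and the authors' values gave 0.0319, 0.0254 and 0.129 for these. The mean over probes turned Gpx4 (-0.17). Without 1 array Gclm ran between -0.0497 and 0.118, Gsta1 between -0.0848 and 0.0701, Mgst2 between -0.160 and 0.0848, Txn1 between -0.0185 and 0.0529, Prdx5 between -0.0586 and 0.0199, and Sod3 between -0.0451 and 0.0287. In all, over named genes and these alternatives, 140 calls were lost, 20 gained, 34 signs turned and 596 values kept their side and sign. Gstm3 was well above background on 2 of 3 exosome arrays and Sesn2 on 0.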
